A study of Homo sapiens with 4 samples.

Results

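BCL6 is a transcriptional repressor of germinal centre B cells, and diffuse large B-cell lymphomas often depend on it. It has no repressive enzyme of its own and works through co-repressors that dock on it, many of which carry or recruit histone deacetylases and demethylases. Lysine acetyltransferases have the opposite role: they add acetyl groups to histones and to other proteins, BCL6 among them. The study concerns a bivalent glue that brings such acetyltransferases to BCL6. The genes described here were chosen as encoding partners that such a glue might exchange. Which of them it exchanges was not tested here.

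The gene set holds 9 genes, of 19974 that code for protein on the autosomes and chromosome X. The repressor side has 5 members, BCOR, NCOR1, HDAC3, KDM1A and CTBP1, and the acetyltransferase side has 4, EP300, CREBBP, KAT2A and KAT2B. They were chosen for what they encode, with earlier results of these data known. All BCL6 peaks were taken whose summit lay in one of these genes or within 50 kb of either RefSeq end, so each gene was searched over 108 to 286 kb.

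BCL6 occupancy was mapped by CUT&RUN, in which an antibody directs a micrococcal nuclease to chromatin and the released fragments are sequenced. The cells were SUDHL5, an established human diffuse large B-cell lymphoma line, and the labels name no treatment. There were 2 biological replicates with a BCL6 antibody, each with its own list of peaks, 5237 in replicate 1 and 3536 in replicate 2. Control libraries made with normal rabbit IgG, also 2, are not analysed here, and no peak was compared with them for this report. Whether the authors' peak calling used them as a control is not known. The lists hold no expression values, so the line was not checked against B cell markers, and nothing here tells how strongly a gene was transcribed. Read totals are unknown, and the median summit pileup was 23 fragments in replicate 1 and 21 in replicate 2. The libraries form 1 group and genes are not replicates of a condition, so no difference between the repressor and the acetyltransferase genes was tested.

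Of the 14 RefSeq promoters listed for the 9 genes (GRCh38.p14, each 250 bases before to 50 after a start), 5 are shown because they stand for the patterns found. They are the KDM1A promoter, which carries a peak of both replicates, the EP300 promoter, whose last bases carry a replicate 1 peak, the KAT2B promoter, which lies just downstream of a peak of both, the CREBBP promoter, which is far from any peak, and the inner NCOR1 promoter. Capitals mark matches, on either strand, to TTCCTAGAA, a consensus of the BCL6 motif, to its outer bases TTCNNNGAA, or to its first part TTCCT. A match to TTCCTAGAA is also a match to the other two.
KDM1A, chr1:23019218-23019517, plus strand: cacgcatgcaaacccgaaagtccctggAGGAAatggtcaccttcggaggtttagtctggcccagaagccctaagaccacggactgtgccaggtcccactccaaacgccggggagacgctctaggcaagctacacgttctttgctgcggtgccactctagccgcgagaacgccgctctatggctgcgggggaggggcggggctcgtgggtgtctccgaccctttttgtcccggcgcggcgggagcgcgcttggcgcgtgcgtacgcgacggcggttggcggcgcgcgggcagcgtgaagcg
NCOR1, chr17:16194590-16194889, minus strand: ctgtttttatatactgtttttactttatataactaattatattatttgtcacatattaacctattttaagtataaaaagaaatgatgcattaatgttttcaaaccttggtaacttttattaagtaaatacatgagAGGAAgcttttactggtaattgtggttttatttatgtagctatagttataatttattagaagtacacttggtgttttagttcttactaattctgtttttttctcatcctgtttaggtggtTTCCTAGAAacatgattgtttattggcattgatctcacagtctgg
EP300, chr22:41092342-41092641, plus strand: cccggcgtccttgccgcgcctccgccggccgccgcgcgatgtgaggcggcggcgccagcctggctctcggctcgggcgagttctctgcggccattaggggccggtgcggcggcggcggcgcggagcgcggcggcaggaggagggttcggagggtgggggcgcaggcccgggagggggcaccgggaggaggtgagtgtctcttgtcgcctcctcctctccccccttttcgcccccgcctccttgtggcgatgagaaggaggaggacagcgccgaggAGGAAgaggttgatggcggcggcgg
CREBBP, chr16:3880664-3880963, minus strand: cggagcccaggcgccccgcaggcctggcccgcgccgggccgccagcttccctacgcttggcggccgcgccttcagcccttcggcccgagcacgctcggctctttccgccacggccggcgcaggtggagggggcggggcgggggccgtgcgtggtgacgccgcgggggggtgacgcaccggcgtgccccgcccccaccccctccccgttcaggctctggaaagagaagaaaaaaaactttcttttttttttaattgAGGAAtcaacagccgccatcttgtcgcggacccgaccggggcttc
KAT2B, chr3:20040196-20040495, plus strand: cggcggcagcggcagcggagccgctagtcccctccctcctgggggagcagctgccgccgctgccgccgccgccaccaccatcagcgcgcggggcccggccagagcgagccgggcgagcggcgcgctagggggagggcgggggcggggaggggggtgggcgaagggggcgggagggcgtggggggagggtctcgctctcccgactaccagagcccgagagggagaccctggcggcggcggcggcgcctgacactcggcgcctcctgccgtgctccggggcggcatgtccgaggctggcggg

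BCL6 summits were more numerous at the repressor genes than at the acetyltransferase genes in both replicates, and most of that surplus lay in 1 gene, BCOR. The windows held 12 repressor summits and 3 acetyltransferase summits in replicate 1, and 11 and 2 in replicate 2. BCOR held 6 of the 12 and 8 of the 11. All 5 repressor genes had a summit in at least 1 list, against 2 of 4 acetyltransferase genes and 7441 of all 19974 protein-coding genes. No summit lay in the windows of CREBBP or KAT2A in either list, as for most protein-coding genes.

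In replicate 1, 6 of the 9 genes had a summit in their window, 4 repressors and 2 acetyltransferases, where 29.5% of all protein-coding genes had one. In replicate 2, 4 of 9 had one, 3 repressors and 1 acetyltransferase, where 23.3% of all had one. A summit of each list lay in the windows of 3 of 9 genes, BCOR, KDM1A and KAT2B, where 15.6% of all genes had both. In these same 3 genes the peaks of both lists overlapped by at least 1 bp (a reproducible region), against 10.2% of all genes. With a reciprocal overlap of at least 50% KAT2B alone was left, with 0 repressors, and with a −log10 q threshold of 5 no member was left. The windows of 5 members, BCOR, NCOR1, EP300, CREBBP and KAT2B, are among the longest 25% of all genes, in which 33.2% had a summit in replicate 1, 26.3% in replicate 2 and 12.1% a reproducible region.

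**Figure D1:**
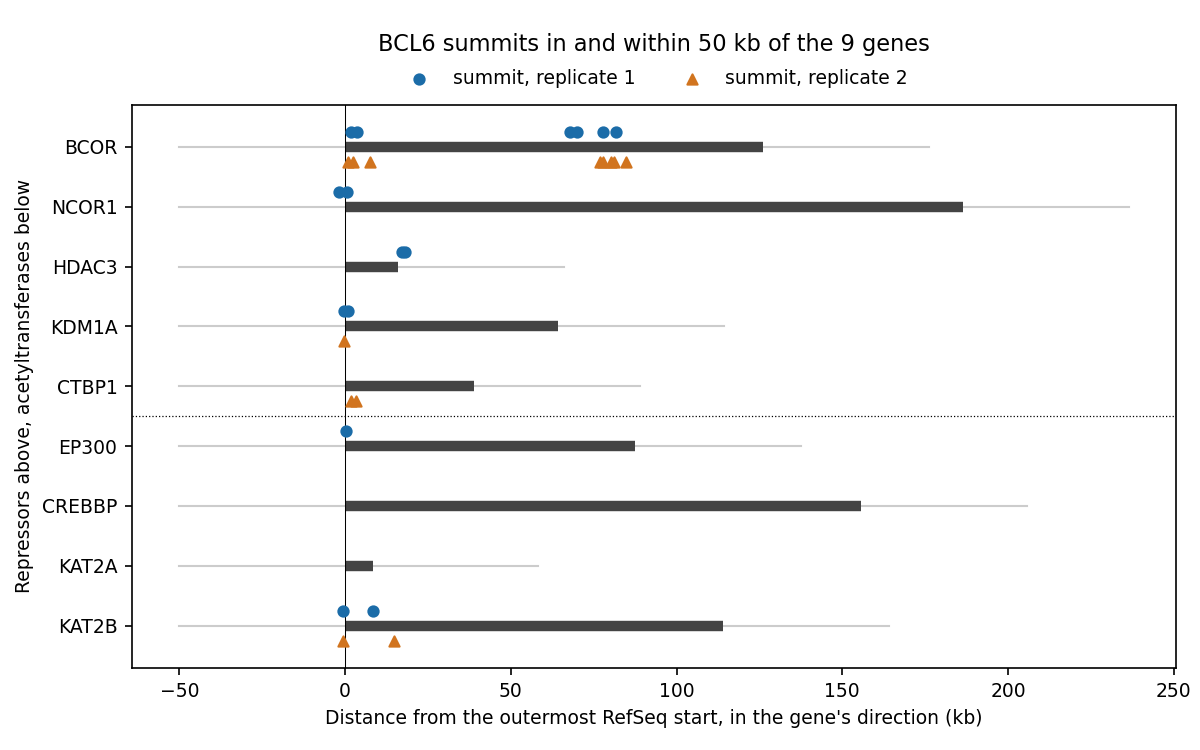
Positions of BCL6 summits along the 9 genes, as distance in kb from the outermost RefSeq start in the direction of transcription; dark bars are gene bodies, grey lines the 50 kb flanks, circles replicate 1 and triangles replicate 2. In at least 1 list, 6 of the 9 genes have a summit within 1 kb of a listed start, BCOR has a second group 68.0 to 84.7 kb downstream of its start, and CREBBP and KAT2A have none.

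Counted per 100 kb of window, the median of the repressor genes was 1.22 summits in replicate 1 and 0.61 in replicate 2. The median of the acetyltransferase genes was 0.27 in replicate 1 and 0 in replicate 2, and that of all protein-coding genes was 0 in both. The latter is 0 because most genes had no summit. Summed over genes and divided by the summed windows, acetyltransferases had 0.39 in replicate 1 and 0.26 in replicate 2, against 0.33 and 0.23 for all genes. Repressors had 1.29 and 1.18, and without BCOR 0.85 and 0.43. BCOR had 2.65 summits per 100 kb in replicate 1, above 97.9% of all genes, and 3.54 in replicate 2, above 99.3%. No other member reached 2 per 100 kb in either list: the next were HDAC3 with 1.72 in replicate 1 and CTBP1 with 1.44 in replicate 2, and each of these had none in the other list. With BCOR left out, an option added after its count was seen, the repressor medians were 0.96 and 0.30 against unchanged acetyltransferase medians. Counting only summits for which the member is the nearest protein-coding gene brought the replicate 1 medians to 0.35 for repressors and 0.27 for acetyltransferases, since the HDAC3 summits and 1 NCOR1 summit lie nearer to other genes, and left the replicate 2 medians at 0.61 and 0.

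**Figure D2:**
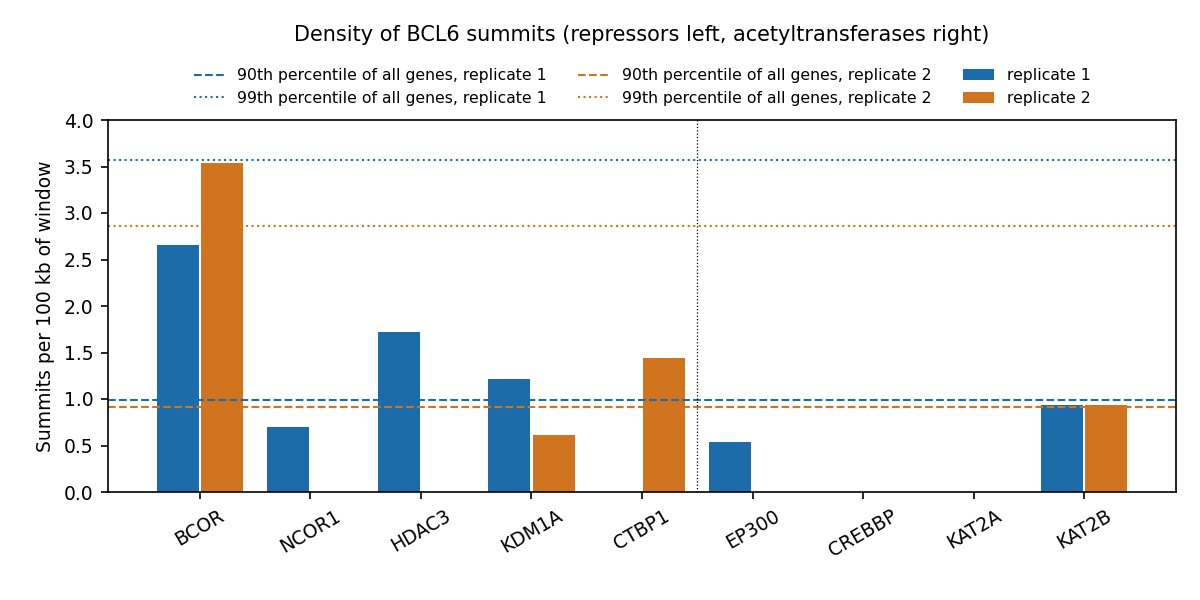
BCL6 summits per 100 kb of search window for each gene, bars by replicate, with the 90th (dashed) and 99th (dotted) percentile of all protein-coding genes in each list. BCOR stands above every other member in both replicates and above the 99th percentile in replicate 2, while CREBBP and KAT2A are at 0.

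Among the repressors, BCOR encodes a co-repressor that binds the BTB domain of BCL6 and belongs to a variant Polycomb complex. The gene lies on chromosome X from 40051246 to 40177277 on the minus strand, and all of its summits were inside it. RefSeq lists a start at its outer end and an inner one 30.6 kb further in. The summits formed 2 groups, told apart after their positions were seen. The distal group spanned 16.9 kb, from 40092483 to 40109379, and held 4 peaks of replicate 1 and 5 of replicate 2. It lay 37.3 to 54.1 kb downstream of the inner start and 41.3 to 58.1 kb from the 3′ end, away from any end of the gene.

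Within the distal group only 1 peak of each list overlapped, over 298 bp (46.2% of the replicate 1 peak and 49.4% of the replicate 2 peak). In replicate 1 that peak was the strongest of all member peaks, with a fold enrichment of 6.87, −log10 q of 14.2 and a pileup of 31 fragments (exact Poisson 95% interval 21.1 to 44.0). In replicate 2 the overlapping peak had a fold enrichment of 3.17, −log10 q of 2.84 and a pileup of 21 (13.0 to 32.1), and the summits were 33 bp apart. The pileup intervals overlap, but they cover counting error only and read depth is unknown, so they do not compare the replicates. The recovered local background under the summit was 3.66 in replicate 1 and 5.93 in replicate 2.

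The other 3 distal peaks of replicate 1 had fold enrichments of 4.06, 5.07 and 5.32, and their nearest replicate 2 summits were 734 bp, 7.07 kb and 9.09 kb away. The other 4 distal peaks of replicate 2 had fold enrichments of 3.61, 4.81, 5.70 and 6.37. Their nearest replicate 1 summits were 759 bp, 734 bp, 1.56 kb and 2.98 kb away. Replicate 1 summits ran from 68.0 to 81.8 kb downstream of the outer start and replicate 2 summits from 77.0 to 84.7 kb, so the lists shared part of the stretch. Peaks covered 2400 bp of the group in replicate 1 and 2344 bp in replicate 2.

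**Figure D3:**
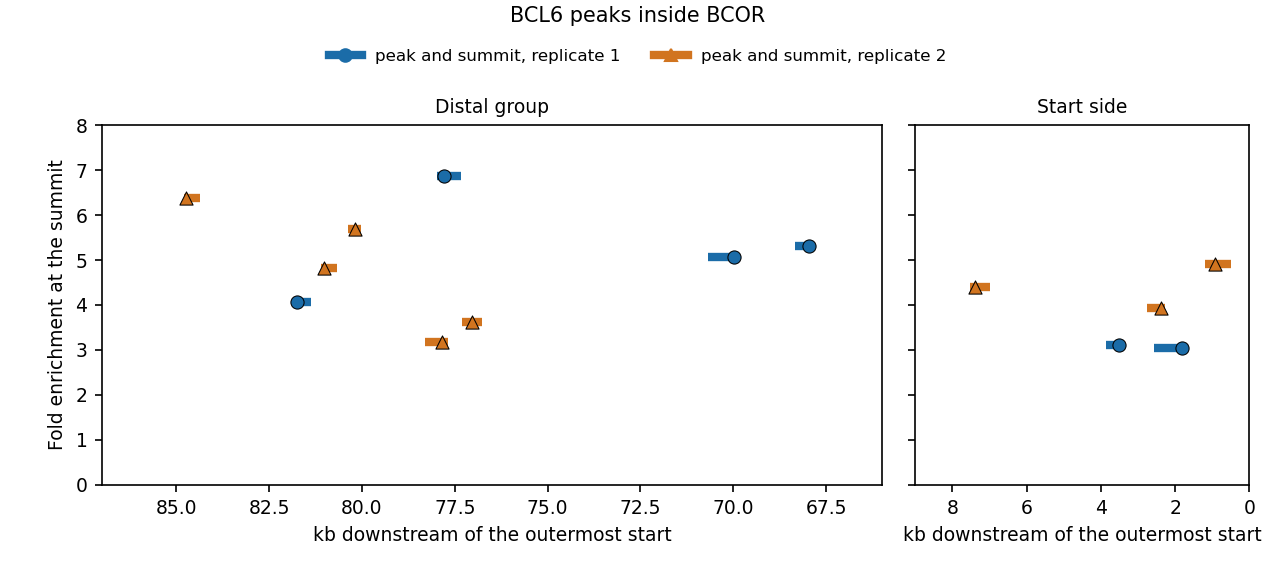
BCL6 peaks inside BCOR: horizontal bars are peaks and markers their summits, plotted by distance in kb from the outermost start (transcription runs from right to left) and by the authors' fold enrichment. In the distal group 1 peak of replicate 1, at 6.87, overlaps in part with a peak of replicate 2, at 3.17. The other distal peaks do not overlap. The replicate 1 peaks at 5.07 and 5.32 lie 7.07 and 9.09 kb from the nearest replicate 2 summit.

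The start side of BCOR held 2 peaks of replicate 1 and 3 of replicate 2, between 941 bp and 7.38 kb downstream of the outer start. The overlapping pair had fold enrichments of 3.03 in replicate 1 and 3.94 in replicate 2, with summits 577 bp apart, at 1.82 and 2.39 kb. The strongest here was a replicate 2 peak 941 bp from the start, with a fold enrichment of 4.91 and −log10 q of 6.88, and no replicate 1 peak overlapped it. Local backgrounds were 3.89 to 7.58 on the start side and 2.14 to 5.93 in the distal group. Peaks on chromosome X had a lower median background than those on chromosomes 1 to 22, 3.93 against 5.90 in replicate 1 and 3.69 against 4.66 in replicate 2. The part of the background in the fold enrichment at BCOR was not tested.

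KDM1A encodes the histone demethylase LSD1, which removes methyl groups from lysine 4 of histone H3. It had the most closely matched summits of the 9 genes, at its promoter. The reproducible region lay on chromosome 1 from 23018589 to 23019737, with the replicate 1 summit 278 bp and the replicate 2 summit 272 bp upstream of the start, 6 bp apart. In replicate 1 the fold enrichment was 4.20, the −log10 q 8.74 and the pileup 35 (24.4 to 48.7). In replicate 2 they were 3.22, 3.81 and 26 (17.0 to 38.1). The replicate 1 peak covered all 300 bases of the promoter printed above, and the narrower replicate 2 peak covered 42 of them, at the upstream side. The 1 match to TTCCT there, read on the other strand, begins at position -223 relative to the start and lies within both peaks. A second replicate 1 peak, 734 bp downstream of the start, had a fold enrichment of 3.43 and a pileup of 15 (8.40 to 24.7), with no overlapping replicate 2 peak.

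NCOR1 encodes a co-repressor that binds the BTB domain of BCL6 in the same groove as BCOR and carries HDAC3 with it. It had 2 summits in replicate 1 and none in replicate 2. One lay 602 bp downstream of its outer start, with a fold enrichment of 2.48 and a −log10 q of 1.53, where the lowest in that list was 1.31. The other lay 2009 bp upstream of that start, with a fold enrichment of 3.12 and a −log10 q of 4.20. It was closer to the neighbouring gene PIGL, an enzyme of glycolipid anchor synthesis, 333 bp downstream of the PIGL start. In replicate 2 the nearest summit was 71.8 kb away. The inner NCOR1 promoter printed above was the only 1 of the 14 with the full TTCCTAGAA, which begins 5 bases downstream of that start and is found in 0.289% of 22132 protein-coding promoters. No peak lay there in either list, and the nearest summits were 20.3 kb away in replicate 1 and 92.7 kb in replicate 2.

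HDAC3 encodes the deacetylase of the NCOR complex. Its window held 2 summits in replicate 1 and none in replicate 2, and neither was in the gene. The nearer was 1.17 kb beyond its 3′ end, and both were at the start of DIAPH1, an actin-organising formin: 1 was 272 bp downstream and the other 710 bp upstream of the DIAPH1 start. Both had a fold enrichment of 3.35, with pileups of 32 (21.9 to 45.2) and 19 (11.4 to 29.7). They were 18.1 and 17.1 kb from the HDAC3 start, so these values belong to the window of HDAC3 rather than to its promoter.

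CTBP1 encodes a co-repressor that other factors recruit through a short peptide motif and that has been tied to the control of BCL6 by its own product. Unlike NCOR1 and HDAC3 it had 2 summits in replicate 2 and none in replicate 1. They lay inside the gene, 581 bp and 2.18 kb downstream of the innermost of its 3 listed starts, with fold enrichments of 3.61 and 4.10 and pileups of 24 (15.4 to 35.7) and 14 (7.65 to 23.5). In replicate 1 the nearest summit was 417 kb away.

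Among the acetyltransferases, KAT2B, which encodes PCAF, was the only gene with summits in both lists. A reproducible region on chromosome 3 from 20039747 to 20040166 lay just upstream of its start. The summits were 639 bp upstream in replicate 1 and 565 bp upstream in replicate 2, 74 bp apart. The fold enrichments were low, at 2.40 and 2.83, with −log10 q of 1.75 and 2.94. The pileups of 25 (16.2 to 36.9) and 27 (17.8 to 39.3) stood over the highest local backgrounds of all member peaks, 9.83 and 8.90. By the smaller of both fold enrichments, 2.40, this region exceeded 7.63% of the 1311 reproducible regions, where the KDM1A region exceeded 45.9% and the BCOR regions 42.2% and 36.5%. The peak ended 64 bases before the printed promoter in replicate 1 and 29 bases before it in replicate 2, and that promoter has no match to any of the 3 motifs.

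KAT2B also had a peak inside the gene in each list, without overlap. In replicate 1 it lay 8.31 kb downstream of the start with a fold enrichment of 5.64 and −log10 q of 7.81, more enriched than the promoter peak. In replicate 2 it lay 14.6 kb downstream with a fold enrichment of 3.28, −log10 q of 1.59 and a pileup of 12 (6.20 to 21.0). These summits were 6.28 kb apart.

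EP300 encodes p300, which acetylates histone H3 at enhancers and can acetylate BCL6 itself. It had 1 summit, in replicate 1, 194 bp downstream of its start. The fold enrichment was 3.84, the −log10 q 7.14 and the pileup 33 (22.7 to 46.3). The peak began inside the printed promoter and covered its last 15 bases, while the 1 match to TTCCT there begins 25 bases downstream of the start, before the peak. The nearest replicate 2 summit was 234 kb from the gene. The replicate 1 pileup exceeded that of 79.2% of the peaks in its list and the fold enrichment that of 61.0%, over a local background of 7.86. Of all replicate 1 peaks, 25.7% overlapped a replicate 2 peak.

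CREBBP, the paralogue of EP300 and a gene often mutated in this lymphoma, had no summit in its window. The nearest were 419 kb away in replicate 1 and 536 kb in replicate 2. KAT2A, which encodes GCN5, the acetyltransferase of the SAGA complex and paralogue of KAT2B, had none either. Its nearest summits were 95.4 kb away in replicate 1, nearest to NKIRAS2 with a fold enrichment of 5.08, and 63.0 kb away in replicate 2, nearest to HCRT with 3.03. The lists hold only regions that passed the caller's threshold, so a gene without a peak is not shown to lack BCL6.

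**Figure D4:**
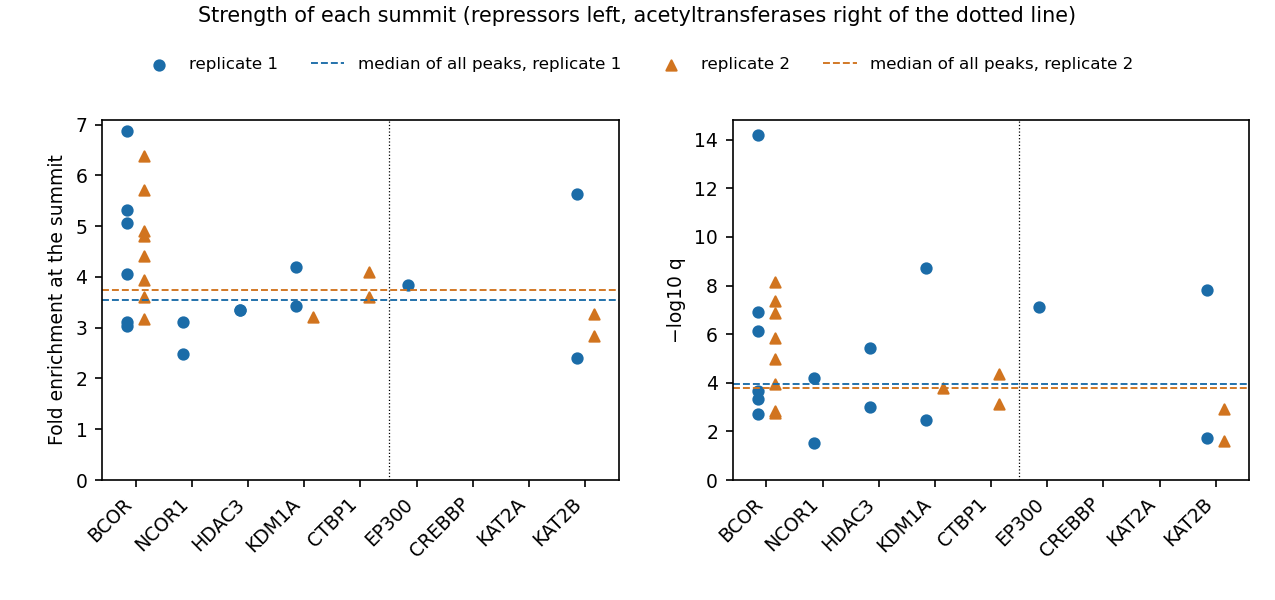
Fold enrichment (left) and −log10 q (right) given by the authors for every BCL6 summit in the windows, by gene and replicate, with dashed lines at the medians of all peaks of each list. Summits of BCOR reach 6.87 and 6.37, and those of the other genes lie between 2.40 and 5.64. Fold enrichments within a gene differ widely at BCOR (3.03 to 6.87) and KAT2B (2.40 to 5.64). They lie closer together at NCOR1, HDAC3, KDM1A and CTBP1.

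The member peaks were of middling strength within their lists. By fold enrichment their medians were 3.43 (replicate 1) and 3.94 (replicate 2), against 3.55 and 3.74 for all peaks on chromosomes 1 to 22 and X. The ranges of the 2 sides overlapped in replicate 1, 2.48 to 6.87 for repressors and 2.40 to 5.64 for acetyltransferases. In replicate 2 they were 3.17 to 6.37 and 2.83 to 3.28, with 2 acetyltransferase peaks, both at KAT2B. Of the replicate 1 member peaks 4 of 15 overlapped a replicate 2 peak (26.7%, Wilson 95% interval 10.9 to 52.0), against 25.7% of all replicate 1 peaks. Of the replicate 2 member peaks 4 of 13 overlapped (30.8%, 12.7 to 57.6), against 38.4% of all. These intervals treat peaks as independent, although 6 of the 15 and 8 of the 13 lie in BCOR. The overlapping peaks are also the same pairs counted from each list. The intervals therefore do not test the members against all peaks.

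The position relative to a start was examined after the peaks had been seen. A summit within 1 kb of a listed start was found at 4 of 9 genes in replicate 1 (NCOR1, KDM1A, EP300 and KAT2B), against 9.59% of 15812 protein-coding genes with a listed start. In replicate 2 it was found at 4 of 9 (BCOR, KDM1A, CTBP1 and KAT2B), against 7.3%. In either list 6 of 9 genes had one, 4 of 5 repressors and 2 of 4 acetyltransferases, against 13.5% of all. A reproducible summit lay there at KDM1A and KAT2B, against 3.11% of all. Without BCOR, 5 of 9 summits in replicate 1 and 3 of 5 in replicate 2 were within 1 kb of a start of the member, whereas at BCOR 0 of 6 and 1 of 8 were. The share of all peaks this close to a start was not counted, so these summit counts have no background share.

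The short motif was as frequent in the member promoters as in others to within a few percentage points. TTCCT was found in 6 of 9 repressor promoters and 2 of 5 acetyltransferase promoters, 57.1% of the 14, against 60.6% of all 22132. TTCNNNGAA was found in 1 of the 14, against 6.79% of all. A match is a run of letters and not a bound site, and no genome sequence was used outside these windows, so the peaks inside BCOR were not searched.

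Other genes of the same complexes were also counted, from lists that were not tested. Of 26 other repressor subunits, 10 had a summit in the 50 kb window in replicate 1 (38.5%), 9 in replicate 2 (34.6%) and 4 a reproducible region (15.4%). Of 20 other acetyltransferases and partners, 7 had one in replicate 1 (35.0%), 10 in replicate 2 (50.0%) and 3 a reproducible region (15.0%). For all protein-coding genes these shares were the 29.5%, 23.3% and 10.2% given above, but the windows of the lists were longer, with medians of 161 kb for the repressor subunits and 167 kb for the acetyltransferases and partners against 124 kb. Summed over each list and divided by the summed windows, summits per 100 kb in replicate 1 were 0.36 and 0.40 for these lists, against 0.33 for all genes. In replicate 2 they were 0.43 for both lists against 0.23. Reproducible regions per 100 kb were 0.066 and 0.076, below the 0.092 of all genes.

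The repressor subunits with a reproducible region were KDM2B, HDAC1, TBL1XR1 and HDAC7. High counts of summits were not confined to BCOR, which had 6 in replicate 1 and 8 in replicate 2. TBL1XR1 had 6 and 5, and HDAC7 had 3 and 8, while 16 of the 26 subunits had none in replicate 1 and 17 none in replicate 2. These counts are not divided by window length. KDM2B, the demethylase of the Polycomb complex that contains BCOR, had fold enrichments of 3.71 in replicate 1 and 4.62 in replicate 2 inside the gene. TBL1XR1, a subunit of the NCOR complex, had 2.93 and 4.22, also inside the gene. The regions assigned to the deacetylases HDAC1 and HDAC7 were outside them, 35.1 and 10.8 kb away, and nearer to LCK and VDR. BCORL1, the relative of BCOR, had no summit in either list and is named after its values were seen.

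On the acetyltransferase side the genes were KAT7, NCOA3 and KAT6B. KAT6B had fold enrichments of 2.79 and 2.02 at a region inside the gene, 1.82 kb from an end. The region nearest NCOA3, a nuclear receptor coactivator, was 14.2 kb away with 2.48 and 3.96. That of KAT7 was 48.0 kb away and nearer to FAM117A, with 2.79 and 3.84.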

How the data were processed

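The files analysed are 1 deposited narrowPeak list per BCL6 library. The submitters' processing notes name MACS2 for peaks, Bowtie2, build hg38, and the helper tools cutadapt, FastQC, Picard, SAMtools, deepTools and bedtools. Which settings, versions and control were used is not given in the sources used here. Peaks were called per sample. Each deposited peak carries the authors' fold enrichment, a ratio over local background, with −log10 of p and q, a summit, and a score that is 10 times the −log10 q and was not used.

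Pileup and background at each summit were recovered from the authors' −log10 p and fold enrichment, taking fold as (pileup + 1) / (background + 1) and p as the Poisson probability of exceeding the pileup, within 0.001 on the −log10 scale. This held for every peak on chromosomes 1 to 22 and X. Intervals are exact Poisson or Wilson at 95% and cover counting error only. Read depth is unknown.

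Gene ends came from RefSeq GRCh38.p14, the assembly of hg38, and starts and strands from its promoter table, which lists 15812 of the 19974 protein-coding genes and all 9 members. Peaks sharing at least 1 bp were merged, and regions with both lists were called reproducible, with the summit of the highest −log10 q. The nearest gene of a summit is the one that contains it, or else the one with the closest end. All 9 members were described whatever their values. Of the wider lists up to 6 genes each with a reproducible region were named, by the smaller fold enrichment. The members and lists were chosen with earlier results of these data known. The code was tested on simulated data. Python 3.11.15, pandas 2.3.3, numpy 2.4.6 and scipy 1.17.1 were used. Alternatives were windows of 10 or 100 kb or the gene alone, −log10 q of at least 5 or 10, other overlap rules, each list alone, other counts of summits, and leaving out BCOR.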

Additional observations from a re-analysis of the deposited data

How the results depend on the processing

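With gene windows of 10 kb the counts of genes were unchanged, and the difference of medians (repressors minus acetyltransferases, summits per 100 kb) was 1.91 in replicate 1 and 1.19 in replicate 2, against 0.95 and 0.61 with 50 kb. With 100 kb the differences were 0.36 and 0.22, and 7 genes had a replicate 2 summit, against 4. In gene bodies alone the differences were 0.10 and 0 and 1 gene had a reproducible region, against 3. A −log10 q threshold of 5 gave differences of 0.375 and 0, 1 gene in replicate 2 and 0 reproducible genes, so the difference in reproducible genes (2 repressors minus 1 acetyltransferase, 1) became 0. With a threshold of 10, BCOR in replicate 1 was the 1 gene left, replicate 2 had 0, reproducible genes were 0 and all differences were 0. Reciprocal overlap of at least 50% left 1 reproducible gene, KAT2B, so that the difference reversed to -1. Summits within 200 bp changed neither count. Summits assigned to the nearest gene gave a difference of 0.0825 in replicate 1 and left that of replicate 2 at 0.61, and medians per gene not divided by window length differed by 1.5 in replicate 1 and 1 in replicate 2. Without BCOR, added after the data were seen, differences were 0.69 and 0.30, and the difference in reproducible genes was 0. Each list alone gave 4 to 6 genes with a summit, and in both the repressors had 2 more than the acetyltransferases. The cause of these shifts was not tested. Pileups of 12 to 35 fragments limit every single peak here. No paired analysis was possible because only the BCL6 group has peak lists and no groups were compared.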
